A study of Mus musculus with 4 samples.

Results

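The nuclear genes that encode subunits of the mitochondrial oxidative phosphorylation machinery were examined in mouse testis RNA. Members were the protein-coding genes whose symbols begin with the subunit names of complexes I to V or of cytochrome c, with assembly factors left out. The pattern matched 92 genes, of which Sdhaf1 to Sdhaf4 are assembly factors, leaving 88 members of 57010 identifiers in the count table. They comprised 35 genes of complex I, 4 of complex II, 9 of complex III, 2 cytochromes c, 20 genes of complex IV and 18 of complex V. Ndufa4 and its paralogue Ndufa4l2 were placed with complex IV, where Ndufa4 protein resides despite its name. The names alone placed Cox7a2l, a factor that links complexes III and IV, and Atp5s, a coupling factor. Ndufab1, the acyl carrier subunit of complex I, lies outside the pattern.

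Testis RNA came from male ICR mice bought at 8 weeks of age. The ULA group (2 libraries) received the alkylating drug busulfan at 30 mg/kg and, from 2 weeks later, 50 mg/kg of ULA by gavage each day over 4 weeks, ULA being ursolic acid, a triterpenoid found in plants. The BUS group (2 libraries) received busulfan at 30 mg/kg without ULA. Per the paper, it was gavaged with the vehicle of ULA, 5% DMSO in corn oil. Busulfan depletes germ cells, both groups carried it, and libraries of untreated mice were not analysed here. Which animals gave the libraries is not stated in the labels, so p-values measure only the spread between these libraries.

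Oxidative phosphorylation couples electron transport to ATP synthesis. Complexes I and II pass electrons from NADH and succinate to ubiquinone, complex III passes them to cytochrome c, complex IV reduces oxygen, and complex V makes ATP from the proton gradient. All complexes except complex II combine mitochondrially encoded subunits with the nuclear ones. Meiotic and postmeiotic germ cells replace several general subunits with testis isoforms. These are Cyct for the electron carrier Cycs and, in complex IV, Cox6b2, Cox7b2 and Cox8c for Cox6b1, Cox7b and Cox8a.

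The libraries held 16312898 and 15078828 counts in ULA and 18147335 and 18216380 counts in BUS. The share of counts in protein-coding genes was 87.4% and 76.9% in ULA libraries, against 96.9% and 96.3% in BUS libraries. Levels below are counts per 1000000 with library sizes scaled by TMM (CPM), and log2 fold changes are ULA over BUS from edgeR's quasi-likelihood test with Benjamini-Hochberg adjustment over 23023 genes, called at an adjusted p of 0.05. Cell type markers moved between the groups, in a fit that called 15.3% of all genes lower and 11.8% higher. All 8 Leydig cell markers fell, with summed levels of 1242 and 733 CPM in ULA libraries and 8306 and 5717 CPM in BUS libraries. Of 12 Sertoli cell markers 11 fell, whereas 8 of 12 spermatid markers rose, with summed levels of 11167 and 15985 CPM in ULA libraries and 4618 and 6449 CPM in BUS libraries. None of 10 spermatocyte markers passed the test (1 higher at an unadjusted p of 0.05), with a median log2 fold change of 0.45. In whole testis, fewer cells of a type and less RNA per cell cannot be told apart, and the part of these markers in the results below was not tested.

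The nuclear subunits were lower in ULA testes in 22 of the 85 members tested, and 0 members were higher. Their median log2 fold change was -0.46, with quartiles of -0.77 and -0.16, and 73 of 85 estimates lay below 0. At an unadjusted p of 0.05, 1 member (Cox7b2) was higher. DESeq2 called 23 lower (27.1%, against 15.7% of all genes) and 0 higher, and limma-voom 18 lower (21.2%, against 12.0% of all genes) and 0 higher. The members' share of lower calls was 25.9%, compared with 15.3% of all genes tested and 20.5% of the protein-coding genes tested. Among all genes 11.8% were higher. The median over all genes was 0.02 and over protein-coding genes -0.22, so the members' median lay 0.48 below the first and 0.23 below the second on the log2 scale. In 64 members both ULA libraries lay below both BUS libraries. That arrangement was shown by 37.2% of all genes tested and by 7652 of the 16271 protein-coding genes tested. The members' summed level was 4871 and 4578 CPM in ULA libraries, against 6776 and 6228 CPM in BUS libraries, without overlap.

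The number of calls rested on the scaling and on single libraries. When protein-coding genes were scaled and tested alone, 12 members were lower (14.1%), near the 13.9% of all protein-coding genes in that fit. Upper-quartile scaling, which put the median of all genes at 0.31 on the log2 scale, gave 11 lower (12.9%, against 10.3% of all genes) and 3 higher (Atp5mpl, Cox7a2 and Cox7b2). Without ULA library 2 the test called 4 members lower (4.65%, against 2.93% of all genes), and without ULA library 1 it called 10 (11.6%, against 10.5% of all genes). Without BUS library 2 it called 42 lower (49.4%, against 26.4% of all genes) and 2 higher (Cox7b2 and Cyct). In both fits with 1 ULA library the members' median standard error was 0.47, compared with 0.24 with all 4 libraries. The members with a lower call under all 16 alternatives were 4, namely Cox6a1, Cox8a, Atp5g1 and Ndufb11, and 10 kept it under all but the alternatives that left out a ULA library.

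**Figure D1:**
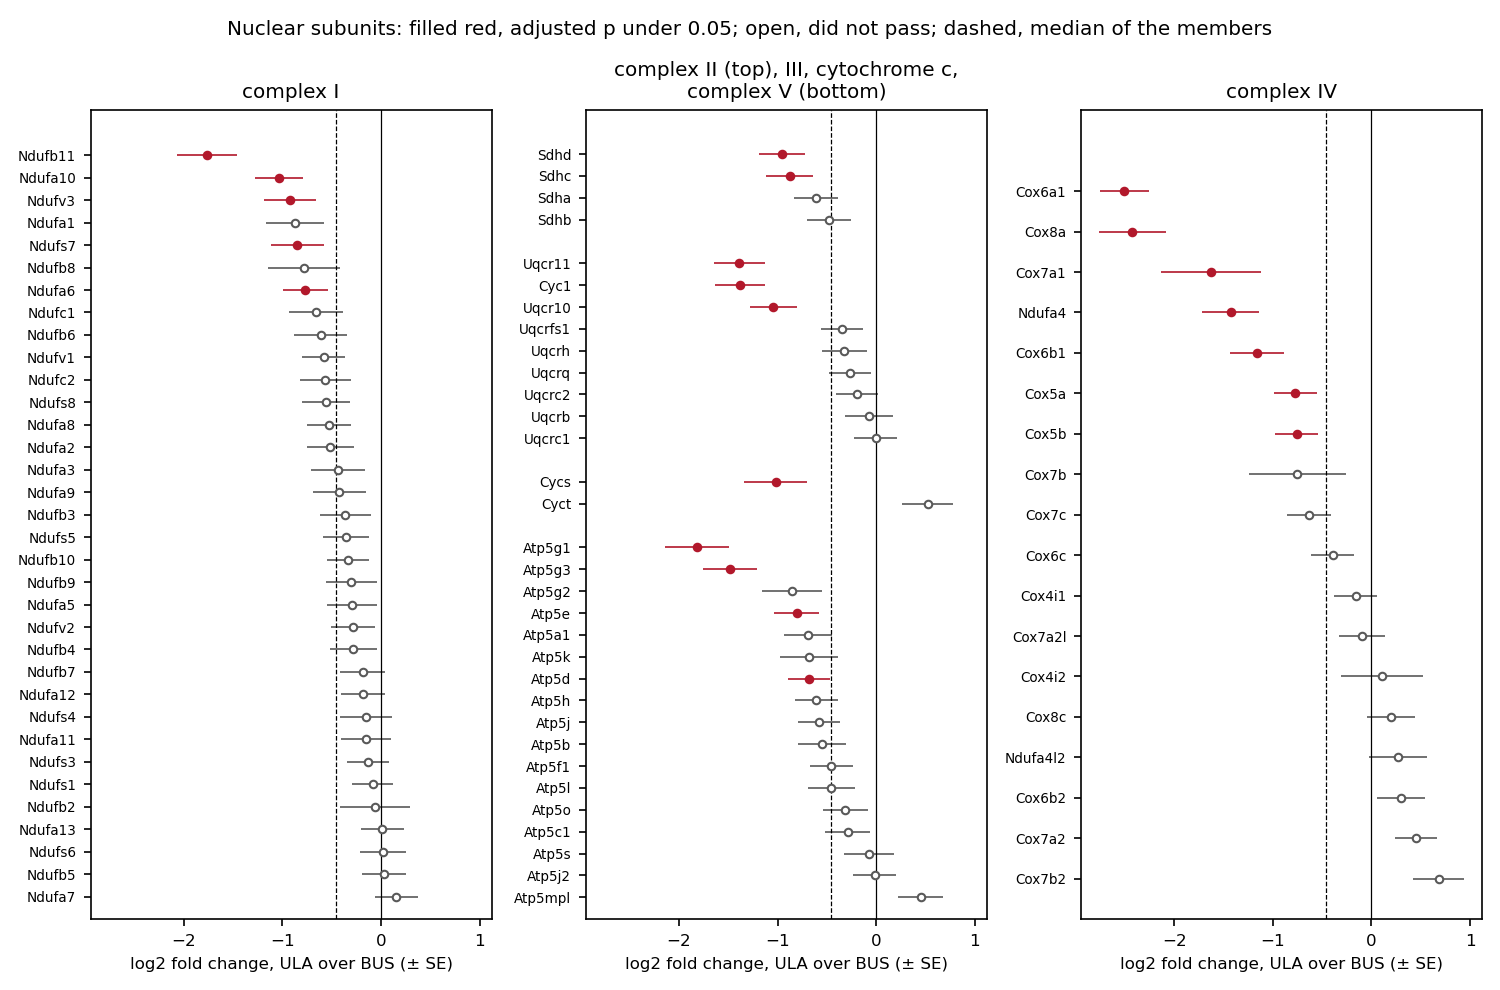
Log2 fold change of ULA over BUS with its standard error for the members tested, by complex, from 2 libraries a group. Filled red points passed edgeR's quasi-likelihood test at an adjusted p of 0.05 (22 members, all below 0), open points did not, and the dashed line marks the members' median of -0.46.

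The nuclear subunits are scattered over the genome, and factors such as NRF1 and GABPA are known for activating many of them through short promoter elements. A few promoters are shown to set a lower member and the pair of cytochromes c side by side. The windows are RefSeq sequences (GRCm38.p6) of 250 bases before to 50 after each annotated start, and 70 of the 87 member symbols matched a gene of that table. Searched on both strands, the NRF1 core GCATGCGC occurred in 11 of 70 members (15.7%), compared with 3.94% of the table's 17492 protein-coding genes. The GABPA core CCGGAAG occurred in 16 members (22.9%) against 12.9% of all, the YY1 core AAGATGG in 11 (15.7%) against 7.18%, and the cAMP response element TGACGTCA in 5 (7.14%) against 2.54%. A gene with several starts counted once if any window held the letters, and none of these motifs contains another. Among the 20 members that were lower and matched, 4 held the NRF1 core and 6 the GABPA core, compared with 7 and 10 of the 49 members that did not pass the test. The YY1 core went the other way, in 1 of the 20 (5%) and 10 of the 49 (20.4%). The cAMP response element was in 2 of the 20 and 3 of the 49. The 3 testis isoforms in the table, Cyct, Cox6b2 and Cox7b2, held none of the 4 motifs. Capitals below mark the NRF1 core, in Cox6a1 on both strands and overlapping, and the cAMP response element of Cycs. All 4 genes lie on the minus strand, and bases inside a GENCODE gene are left out. The GABPA core of Cox6a1, 16 bases before its RefSeq start, lies among the 23 bases left out.
Cox6a1 (lower, chr5:115348982-115349208): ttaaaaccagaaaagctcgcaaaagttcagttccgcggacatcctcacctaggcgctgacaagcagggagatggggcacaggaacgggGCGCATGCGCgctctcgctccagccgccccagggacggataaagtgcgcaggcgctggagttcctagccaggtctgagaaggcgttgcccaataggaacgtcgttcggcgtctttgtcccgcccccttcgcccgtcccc
Cycs (lower, general cytochrome c, chr6:50566570-50566819): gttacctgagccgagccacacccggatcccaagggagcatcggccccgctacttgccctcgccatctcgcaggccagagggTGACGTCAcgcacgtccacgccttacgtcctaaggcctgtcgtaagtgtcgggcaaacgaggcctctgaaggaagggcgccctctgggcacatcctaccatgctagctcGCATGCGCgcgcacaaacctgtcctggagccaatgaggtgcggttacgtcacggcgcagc
Cyct (not called, testis cytochrome c, chr2:76360454-76360703): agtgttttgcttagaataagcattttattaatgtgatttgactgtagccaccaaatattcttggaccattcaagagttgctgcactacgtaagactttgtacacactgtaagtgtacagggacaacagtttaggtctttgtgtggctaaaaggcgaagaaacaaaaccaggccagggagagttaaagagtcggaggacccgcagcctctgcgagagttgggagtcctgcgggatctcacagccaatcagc
Cox7b2 (not called, testis isoform of complex IV, chr5:71548206-71548455): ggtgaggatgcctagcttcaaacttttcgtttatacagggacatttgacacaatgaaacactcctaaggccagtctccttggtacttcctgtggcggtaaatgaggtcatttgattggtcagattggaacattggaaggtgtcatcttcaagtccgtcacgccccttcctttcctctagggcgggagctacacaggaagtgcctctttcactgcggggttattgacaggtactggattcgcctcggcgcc

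In complex I, the NADH dehydrogenase, 5 of 35 members were lower (14.3%, against 15.3% of all genes and 20.5% of protein-coding genes) and the median log2 fold change was -0.36, the SD over members being 0.38. The largest fall was that of Ndufb11, an accessory subunit encoded on the X chromosome (chrX:20615326-20617619, GRCm38). It had 9.62 and 7.61 CPM in ULA libraries and 34.8 and 24.1 CPM in BUS libraries, without overlap (log2 fold change -1.77 ± 0.30 SE, adjusted p = 0.00745). Ndufa10, an accessory subunit of the membrane arm, had 34.4 and 28.0 CPM in ULA and 71.1 and 56.7 CPM in BUS (-1.03 ± 0.24, adjusted p = 0.0184). Accessory subunits Ndufv3 (-0.92) and Ndufa6 (-0.77) also fell.

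Of the 7 nuclear core subunits of complex I, which carry the flavin and the iron-sulphur clusters, only Ndufs7, the carrier of the terminal cluster, passed the test. Its level was 18.5 and 16.2 CPM in ULA libraries and 36.2 and 26.3 CPM in BUS libraries (-0.85 ± 0.27, adjusted p = 0.0456), and the call was lost under 8 of the 16 alternatives. The flavin-binding subunit Ndufv1 had 87.8 and 80.9 CPM in ULA and 131 and 122 CPM in BUS (-0.58, adjusted p = 0.0697). The estimates of Ndufs8, Ndufv2, Ndufs3 and Ndufs1, all binding iron-sulphur clusters except Ndufs3, were -0.56, -0.28, -0.13 and -0.09, and none passed the test. Both ULA libraries lay below both BUS libraries in all 7 core subunits, an arrangement found in 37.2% of all genes and in 7652 of 16271 protein-coding genes. The core subunits had a median of -0.53 and the 28 accessory subunits a median of -0.36. Among the accessory subunits 4 estimates lay above 0, the highest being that of Ndufa7 at 0.16 (adjusted p = 0.595).

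Complex II, the succinate dehydrogenase, consists of nuclear subunits only. Of its 4 members 2 were lower (50%, against 15.3% of all genes and 20.5% of protein-coding genes), with a median of -0.74. Both belong to the membrane anchor. Sdhd had 34.8 and 29.1 CPM in ULA libraries and 66.0 and 58.0 CPM in BUS libraries (-0.95 ± 0.23, adjusted p = 0.0205), and Sdhc had 38.6 and 30.3 CPM in ULA and 67.7 and 59.2 CPM in BUS (-0.88 ± 0.24, adjusted p = 0.0280). The catalytic subunits did not pass the test, although their groups did not overlap. The flavoprotein Sdha had 184 and 159 CPM in ULA and 278 and 246 CPM in BUS (-0.61, adjusted p = 0.0705). The iron-sulphur protein Sdhb had 66.9 and 58.2 CPM in ULA and 94.2 and 80.0 CPM in BUS (-0.48, adjusted p = 0.131).

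In complex III, 3 of 9 members were lower (33.3%, against 15.3% of all genes and 20.5% of protein-coding genes), with a median of -0.32. Cyc1, the haem protein that hands electrons to cytochrome c, had 33.1 and 26.4 CPM in ULA libraries and 88.5 and 67.1 CPM in BUS libraries (-1.39 ± 0.25, adjusted p = 0.00850). An offset on GC content and length put it at -0.64 (adjusted p = 0.0693), and the call was also lost without ULA library 2. The small subunits Uqcr11 and Uqcr10 fell by 1.39 and 1.04 on the log2 scale. Uqcr11 had 11.3 and 10.9 CPM in ULA and 30.8 and 27.1 CPM in BUS. The large core proteins had the highest CPM, which is not divided by length. Uqcrc1 had 196 and 217 CPM in ULA and 202 and 212 CPM in BUS, with overlapping groups (-0.01, adjusted p = 0.983), and Uqcrc2 had 88.7 and 79.9 CPM in ULA and 96.6 and 96.0 CPM in BUS (-0.19, adjusted p = 0.502). Uqcrfs1, the Rieske protein, had an estimate of -0.35 (adjusted p = 0.235).

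Complex IV, the cytochrome c oxidase, held the widest spread of estimates among complexes I to V, with an SD over members of 0.94. Of its 18 members tested 7 were lower (38.9%, against 15.3% of all genes and 20.5% of protein-coding genes), with a median of -0.51. Its largest falls were in small subunits that exist in several tissue forms. Cox6a1, the general form of subunit 6A (chr5:115345642-115348981, GRCm38), had 40.1 and 29.9 CPM in ULA libraries and 211 and 187 CPM in BUS libraries, a log2 fold change of -2.51 ± 0.25 (SE, adjusted p = 0.00322). Its heart and muscle form Cox6a2 failed the filter, with 8 and 5 counts in ULA and 4 and 11 counts in BUS. Cox8a (chr19:7215153-7217616), the general form of subunit 8, had 13.0 and 8.16 CPM in ULA and 70.3 and 43.8 CPM in BUS (-2.42 ± 0.34, adjusted p = 0.00535). The muscle form Cox8b also failed the filter, with 1 and 2 counts in ULA and 0 in both BUS libraries.

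Other complex IV members moved in both directions by estimate. Cox7a1, a muscle form of subunit 7A, was low in every library, with 13 and 13 counts in ULA and 72 and 37 counts in BUS (-1.63 ± 0.51, adjusted p = 0.0434), and lost its call under 7 of the 16 alternatives. Its general counterpart Cox7a2 had 107 and 117 CPM in ULA and 78.0 and 86.1 CPM in BUS, without overlap, and did not pass the test (0.45, adjusted p = 0.135). Cox7a2l had an estimate of -0.10 (adjusted p = 0.769). Ndufa4 fell (12.8 and 10.9 CPM in ULA, 37.6 and 26.0 CPM in BUS, -1.43 ± 0.29, adjusted p = 0.0114), and its paralogue Ndufa4l2, known as a hypoxia-induced gene, had 13.6 and 16.1 CPM in ULA and 10.6 and 13.9 CPM in BUS (0.27, adjusted p = 0.491). Cox5a and Cox5b, subunits on the matrix side, fell by 0.77 and 0.76. Cox4i1, the general regulatory subunit, had 224 and 200.5 CPM in ULA and 237 and 238 CPM in BUS (-0.16, adjusted p = 0.589). Cox4i2, a lung form, stayed at 2.06 and 2.30 CPM in ULA and 1.63 and 2.41 CPM in BUS.

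In complex V, the ATP synthase, 4 of 17 members tested were lower (23.5%, against 15.3% of all genes and 20.5% of protein-coding genes). Their median over the 17 was -0.59. The c-ring subunit is made from 3 genes that encode the same mature peptide behind different import sequences. Atp5g1 (chr11:96068852-96075670) had 12.1 and 9.59 CPM in ULA libraries and 48.6 and 28.1 CPM in BUS libraries (-1.82 ± 0.32, adjusted p = 0.00834). Atp5g3 had 68.5 and 45.8 CPM in ULA and 186 and 134 CPM in BUS (-1.48 ± 0.28, adjusted p = 0.00922). The third, Atp5g2, had 20.1 and 13.6 CPM in ULA and 36.0 and 25.1 CPM in BUS and did not pass the test (-0.86, adjusted p = 0.0636). Its reads are uncertain, since 87.4% of the 50-base words of its transcript occur in other genes.

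The catalytic head of complex V held the members with the highest CPM, again not divided by length. Atp5b, the catalytic beta subunit, had 519 and 485 CPM in ULA and 797 and 672 CPM in BUS (-0.55, adjusted p = 0.116), and Atp5a1, the alpha subunit, had 308 and 275 CPM in ULA and 523 and 421 CPM in BUS (-0.69, adjusted p = 0.0586). Neither passed the test, although the groups did not overlap in either. The central stalk subunits Atp5e and Atp5d fell by 0.81 and 0.68, although Atp5d lost its call under 8 of the 16 alternatives and was at -0.15 (adjusted p = 0.623) with an offset on GC content and length, and the stalk subunit Atp5c1 had an estimate of -0.29 (adjusted p = 0.349). Atp5mpl, a small membrane subunit, was the only tested member of complex V with an estimate above 0 (0.45, adjusted p = 0.160). A second identifier named Atp5o had 0 counts in every library and was not tested.

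Summed over members, the complexes differed little in direction and somewhat in size. Complex V held 1515 and 1398 CPM in ULA libraries and 2395 and 2005 CPM in BUS libraries, complex I 1336 and 1289 CPM in ULA and 1748 and 1671 CPM in BUS, and complex II 324 and 277 CPM in ULA and 506 and 443 CPM in BUS. Complex III held 553 and 550 CPM in ULA and 716 and 686 CPM in BUS, and complex IV 1054 and 994 CPM in ULA and 1285 and 1335 CPM in BUS. The ratio of complex V to complex I within a library, which does not depend on scaling, was 1.13 and 1.08 in ULA and 1.37 and 1.20 in BUS. That of complex II to complex I was 0.243 and 0.215 in ULA and 0.289 and 0.265 in BUS. Neither ratio overlapped between the groups. The ratio of complex III to complex I did not overlap either and was higher in ULA by 0.03 on the log2 scale (0.414 and 0.426 in ULA, 0.409 and 0.411 in BUS), while that of complex IV to complex I did (0.789 and 0.771 in ULA, 0.735 and 0.799 in BUS). With 2 libraries a group an exact permutation test of such a ratio cannot go below p = 0.333.

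**Figure D2:**
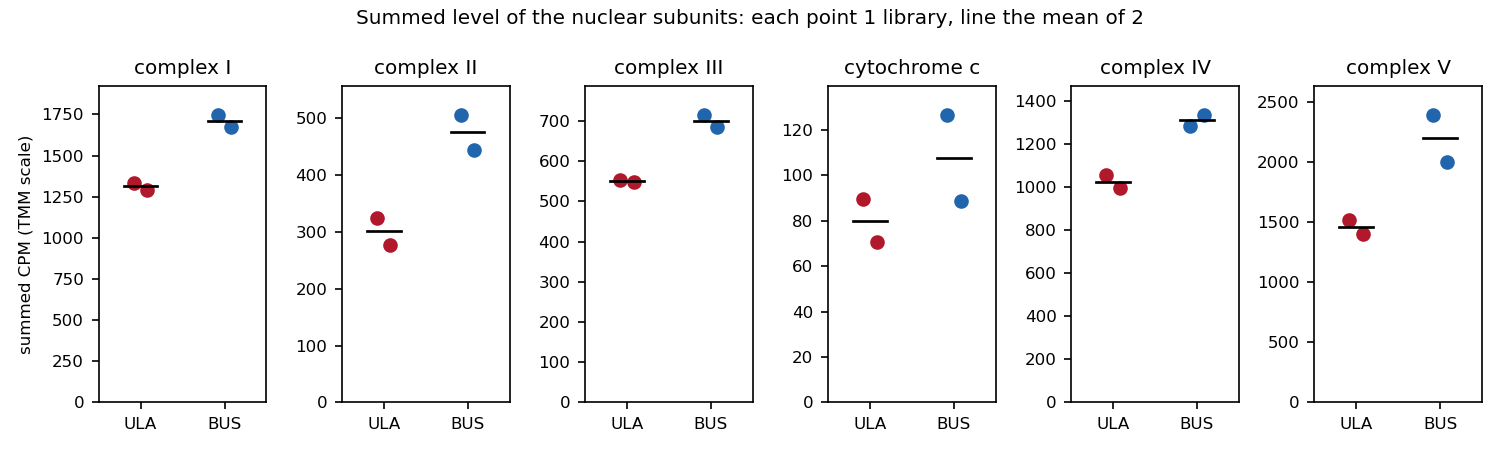
Summed level (CPM on the TMM scale, axes from 0) of the nuclear subunits of each complex in each library, ULA left and BUS right, with a line at the mean of 2 libraries. Both ULA libraries lie below both BUS libraries in complexes I to V, from 1398 to 1515 CPM in ULA against 2005 to 2395 CPM in BUS for complex V, while the cytochrome c sums overlap (89.5 and 70.5 CPM in ULA, 127 and 88.8 CPM in BUS).

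The general partners were lower in 3 of 4 cases (75%, against 15.3% of all genes and 20.5% of protein-coding genes), with a median of -1.09. The 4 testis isoforms all had estimates above 0 (median 0.41), as did 11715 of the 23023 genes tested. None of the 4 isoforms passed the test. Cycs, the general electron carrier, had 44.8 and 33.1 CPM in ULA libraries and 103 and 55.8 CPM in BUS libraries (-1.02 ± 0.32, adjusted p = 0.0420), and Cyct, its testis form, had 44.7 and 37.3 CPM in ULA and 24.0 and 33.0 CPM in BUS (0.52 ± 0.26, adjusted p = 0.149). Neither gene's groups overlapped. Cycs shares 28.2% of its 50-base words with 43 other genes, so its reads are uncertain. Its call was lost under 6 of the 16 alternatives, among them limma-voom and each fit without a ULA library, and without BUS library 1 its estimate was -0.53 (adjusted p = 0.0988).

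For complex IV, Cox6b1 had 19.8 and 14.2 CPM in ULA libraries and 42.4 and 33.8 CPM in BUS libraries (-1.16 ± 0.28, adjusted p = 0.0184), and its testis form Cox6b2 had 146 and 147 CPM in ULA and 97.3 and 140 CPM in BUS (0.30 ± 0.24, adjusted p = 0.360). Cox7b had 17.5 and 5.15 CPM in ULA and 23.0 and 15.4 CPM in BUS, with ULA library 2 far below the others, and did not pass the test (-0.75 ± 0.49, adjusted p = 0.261). Cox7b2 had 82.7 and 72.7 CPM in ULA and 39.1 and 57.8 CPM in BUS (0.68 ± 0.25, adjusted p = 0.0735), the highest estimate of the members tested. Cox8c, partner of the strongly lower Cox8a, had 138 and 144 CPM in ULA and 100 and 146 CPM in BUS, with overlapping groups (0.20 ± 0.25, adjusted p = 0.549). The sign of the testis isoforms depended on the adjustment, since an offset on GC content and length gave -0.50 for Cox7b2, -0.43 for Cox8c and -0.28 for Cyct, with Cox6b2 at 0.26, and scaling by library size alone gave -0.04 for Cox8c. Under that offset the partners Cycs, Cox6b1, Cox7b and Cox8a were at -1.30, -1.56, -1.44 and -2.31, below their testis forms in each pair.

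**Figure D3:**
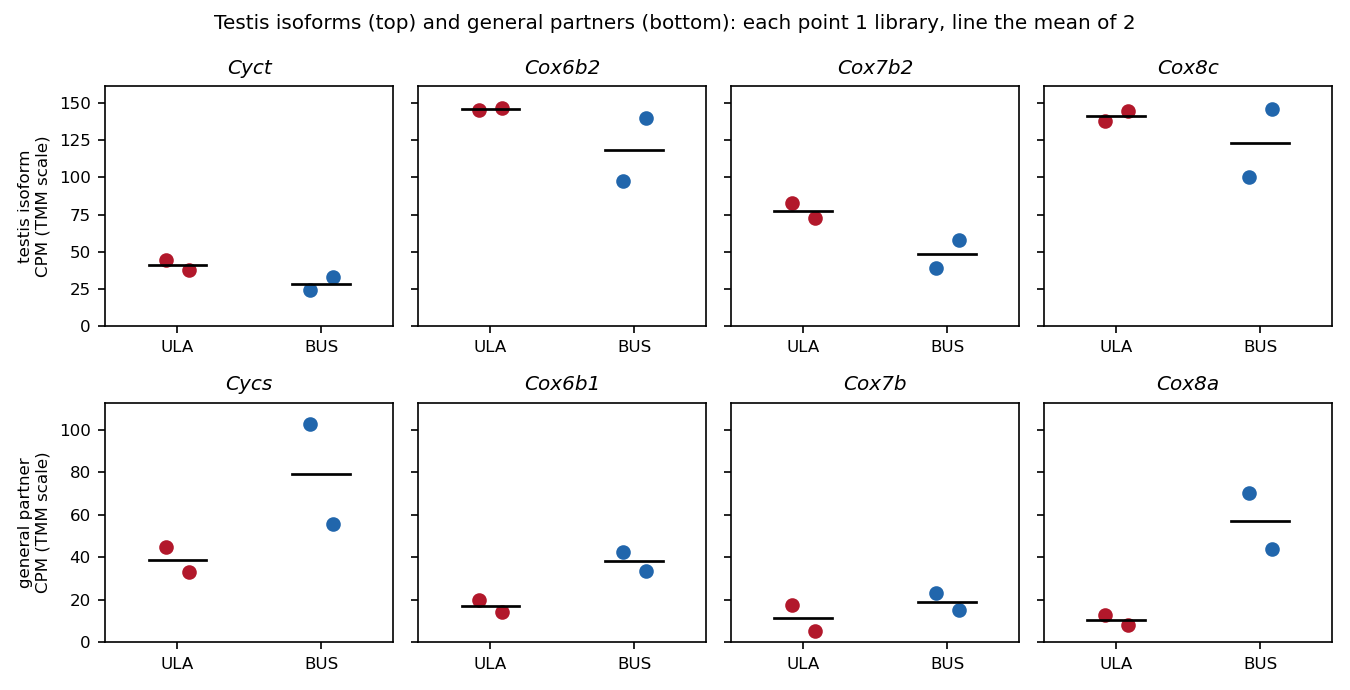
Level (CPM on the TMM scale, axes from 0) of the 4 testis isoforms, top, and their general partners, bottom, in each library, ULA left and BUS right, with a line at the mean of 2 libraries. Cycs, Cox6b1 and Cox8a lie lower in both ULA libraries; the isoforms have estimates above 0, which turn below 0 for Cyct, Cox7b2 and Cox8c with a GC and length offset and for Cox8c with library size alone.

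The balance within each pair was measured as a ratio of counts in the same library. The counts of Cyct over those of Cycs were 0.999 and 1.13 in ULA libraries and 0.234 and 0.592 in BUS libraries, a log2 difference of 1.51. The ratio of Cox6b2 to Cox6b1 was 7.36 and 10.4 in ULA and 2.30 and 4.15 in BUS (difference 1.498). Cox7b2 to Cox7b stood at 4.73 and 14.1 in ULA and 1.70 and 3.75 in BUS (difference 1.69), and Cox8c to Cox8a at 10.6 and 17.7 in ULA and 1.42 and 3.33 in BUS (difference 2.65, which is 6.27-fold). In all 4 pairs both ULA libraries exceeded both BUS libraries. The two-sided exact permutation test gave p = 0.333 for each of the 4 pairs, also after Benjamini-Hochberg adjustment over them, and this is the smallest p that 2 libraries against 2 allow. Divided by transcript length, Cyct was 4.76 and 5.37 times the level of Cycs in ULA libraries and 1.12 and 2.82 times in BUS libraries. The members of a pair share 0 words of 50 bases with each other.

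**Figure D4:**
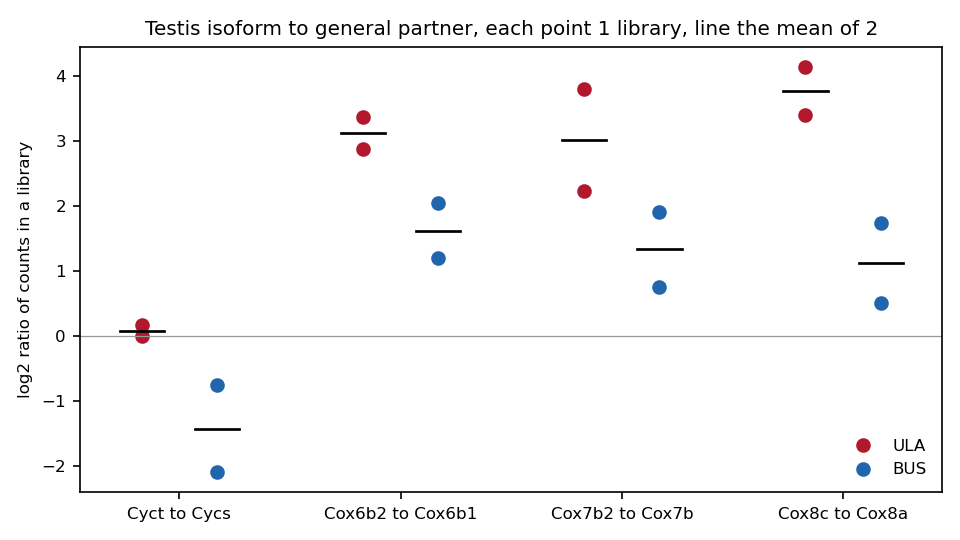
Log2 ratio of the counts of a testis isoform to those of its general partner within each library (red ULA, blue BUS), with a line at the mean of 2 libraries. Both ULA points lie above both BUS points in each of the 4 pairs, by 1.498 to 2.65 between the means.

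Libraries of the same group also differed from each other in these ratios. ULA library 2 lay above ULA library 1 in each pair, as it did in the summed spermatid markers given above, and BUS library 2 lay above BUS library 1 in each pair and in those markers. The testis isoforms' summed level was 411 and 401 CPM in ULA libraries and 261 and 377 CPM in BUS libraries. From library 1 to library 2 it rose in BUS, as the spermatid markers did, but not in ULA. The spermatocyte markers' summed level was 3706 and 3791 CPM in ULA libraries and 2120 and 3014 CPM in BUS libraries. The general partners' summed level was 95.0 and 60.6 CPM in ULA libraries and 238 and 149 CPM in BUS libraries, and the Sertoli cell markers' was 1863 and 1147 CPM in ULA and 6091 and 3161 CPM in BUS. The part of these cell types in the ratios was not tested.

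The 3 X-linked members, Ndufb11, Ndufa1 and Cox7b, had estimates of -1.77, -0.87 and -0.75, and 1 of them passed the test, compared with 28.2% of X-linked protein-coding genes called lower. Ndufa1, an accessory subunit needed to assemble complex I, had 15.6 and 11.0 CPM in ULA libraries and 27.6 and 21.2 CPM in BUS libraries (adjusted p = 0.0556).

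Lists of genes that act with the subunits were read from the same fit. The 13 mitochondrially encoded subunits did not pass the test (lowest adjusted p = 0.153) and had a median of -0.13. The ratio of their summed level to that of the nuclear members was 2.05 and 1.58 in ULA libraries and 2.17 and 1.63 in BUS libraries, with overlap. By complex this ratio overlapped in complexes I, III and IV. In complex V, where mt-Atp6 and mt-Atp8 are the encoded subunits, it was 0.0364 and 0.0251 in ULA and 0.0145 and 0.0151 in BUS, without overlap (log2 difference 1.03). Its numerator is mostly mt-Atp6 (53.6 and 33.5 CPM in ULA, 32.6 and 28.2 CPM in BUS, 0.52, adjusted p = 0.181). Its denominator, the nuclear complex V sum, was lower in ULA (1515 and 1398 CPM, against 2395 and 2005 CPM in BUS). The estimate of mt-Atp8 was -0.38, from 25 and 21 counts in ULA and 40 and 41 counts in BUS. Both lay far below mt-Co1 (4742 and 3729 CPM in ULA, 8181 and 5543 CPM in BUS), and whether their reads were undercounted was not tested. Of 42 assembly factors 7 were lower (16.7%, against 15.3% of all genes) and 1 higher (median -0.44). The lower ones included the complex IV factors Cox14 (8.41 and 7.61 CPM in ULA, 37.4 and 26.8 CPM in BUS) and Cox15 (-1.71), an enzyme of haem A synthesis, and the complex I factor Ndufaf8 (-1.25). The exception was Lyrm7 (0.83), a complex III factor. Of 17 genes of the tricarboxylic acid cycle 5 were lower (29.4%, against 15.3% of all genes and 20.5% of protein-coding genes, median -0.36). Among them were Suclg2 (-1.58), Mdh2 (-1.25) and Idh2 (-1.78).

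Carriers and channels move ATP out of the mitochondrion and ADP and phosphate in. Of 8 tested 4 were lower (50%, against 15.3% of all genes and 20.5% of protein-coding genes, median -0.55). The lower ones were the phosphate carrier Slc25a3 (-1.08), the ADP/ATP carriers Slc25a4 (-1.67) and Slc25a5 (-1.76) and the outer membrane channel Vdac1 (-1.63). The count ratio of the germ cell ADP/ATP carrier Slc25a31 to Slc25a4 was 1.57 and 1.86 in ULA libraries and 0.293 and 0.667 in BUS libraries, and that of Pdha2, the testis form of a pyruvate dehydrogenase subunit, to Pdha1 was 18.2 and 26.2 in ULA and 3.43 and 8.55 in BUS. Of 15 regulators of mitochondrial biogenesis 3 were lower (20%, against 15.3% of all genes and 20.5% of protein-coding genes). These were Esrra (-0.92), Pprc1 (-0.89) and Polrmt (-0.73). In the same list 1 was higher, Tfam (0.77), which packages mitochondrial DNA. Of 10 sperm glycolysis and germ cell energy isozymes 3 were higher, compared with 11.8% of all genes, and the median was 0.65. The 3 were Gapdhs (1.36), Pgk2 (1.04) and Aldoart1 (0.88). Ribosomal protein genes, short and widely expressed like the subunits, had medians near the members', -0.46 over 77 mitochondrial and -0.37 over 83 cytosolic ones. In each list 16 were lower (20.8% and 19.3%, against 15.3% of all genes and 20.5% of protein-coding genes).

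**Figure D5:**
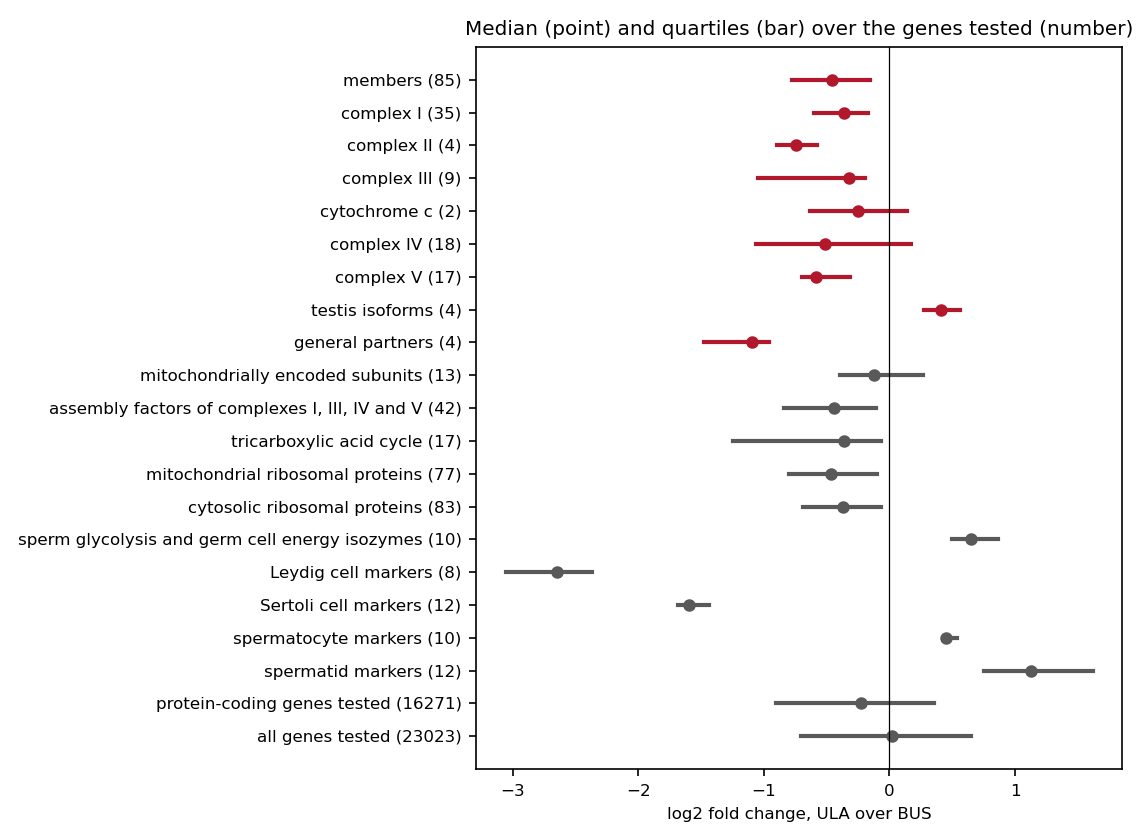
Median and quartiles of the log2 fold change of ULA over BUS for the members, their groups (red) and other lists (grey), with the number of genes tested in brackets. The members' median of -0.46 lies below that of protein-coding genes at -0.22 and level with mitochondrial ribosomal proteins at -0.46. The testis isoforms (0.41) lie on the side of the spermatocyte (0.45) and spermatid markers (1.13). With a GC and length offset 3 of the 4 isoforms leave that side.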

How the data were processed

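RNA was sequenced from testis of 2 ULA and 2 BUS samples. The authors deposited raw, unnormalized counts for each Ensembl gene identifier. Per the paper, reads were cleaned with Fastp, aligned to GRCm38 with STAR and counted with FeatureCounts, whereas RSEM 1.3.1 stands in the submitters' processing notes, and which of them made the counts was not settled. Neither the strand setting nor the treatment of reads that map to several places is stated in those sources, and reads of overlapping genes (48% of the exon bases of Atp5o, 39% of Ndufb6, 30% of Ndufa13) and of pseudogene copies may be shared. ULA columns carry an unexplained letter A.

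From the counts, genes passing filterByExpr (at least 10 counts by group, 15 in total) were scaled by TMM and tested with edgeR 4.0.16 in R 4.3.3 (quasi-likelihood, Benjamini-Hochberg over 23023 genes, no covariate). The fit had 2 residual degrees of freedom, 7.18 prior ones (median) and a biological coefficient of variation of 0.242. A count of 0 was limited at 3 counts in a library (0.182 and 0.238 CPM in ULA, 0.158 and 0.148 CPM in BUS), counting error only. Isoform ratios added 0.5 to each count on the log2 scale. Symbols, gene classes and lengths came from GENCODE M21, in which 52081 of 57010 identifiers had a symbol, with length that of the longest principal transcript. Promoters came from RefSeq (GRCm38.p6).

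Members and lists were chosen with earlier results of these data known. Named were the isoforms, core and complex II subunits, the 2 most abundant and 2 most changed members of each complex, untested members and at most 3 genes of each list by p, to which the other called genes of short lists, other called members and Atp5mpl, Ndufa7, Uqcrfs1, Atp5c1 and Ndufa1 were added after their values were seen. A gene that the rule names is not reported here. Alternatives were other scalings, DESeq2 1.42.0, limma-voom (limma 3.58.1), filters, gene classes, a replicate block, leaving out each library and an offset on GC content and length (mgcv 1.9.3). The edgeR fit was tested on simulated data.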

Additional observations from a re-analysis of the deposited data

How the results depend on the processing

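The count of 22 lower members stayed within 1.5 times under RLE scaling, DESeq2, limma-voom and removal of Lars2, Gm15564 and unnamed identifiers. The same held for scaling by library size alone (31, 36.5% against 21.9% of all genes). It also held for both filters on low counts (30 with no filter, 34.5% against 12.05% of all genes). That count changed more under other settings. It moved to 11 lower and 3 higher with upper-quartile scaling (12.9% lower, against 10.3% of all genes), to 12 with protein-coding genes alone (14.1% against 13.9%) and to 35 with an offset on GC content and length (41.2% against 12.6%). Scaling set the level of the estimates. The members' median was -0.17 under upper-quartile scaling, -0.68 under library size alone, where the median of all genes was -0.20, -0.26 with protein-coding genes alone and -0.61 with the GC and length offset. By complex, upper-quartile scaling gave 2, 0, 0, 4 and 2 lower calls in complexes I and II, cytochrome c and complexes IV and V, and protein-coding genes alone gave 2, 1, 0, 4 and 2. Library size alone gave 8 in complex I and 8 in complex V, no filter 8 in complex V, the GC and length offset 12 in complex I and 8 in complex V, and limma-voom 0 for cytochrome c.

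Leaving out 1 library at a time gave 4 to 42 lower and 0 to 2 higher members, 1 to 13 lower in complex I, 0 to 4 in complex II, 0 to 3 in complex III, 0 to 1 for cytochrome c, 2 to 9 in complex IV and 1 to 12 in complex V, with the members' median between -0.56 and -0.36. The fits with 1 ULA library assume that it varies like the other group. The isoform ratio differences ranged from 0.84 to 2.18 for Cyct to Cycs, 1.07 to 1.92 for Cox6b2 to Cox6b1, 0.91 to 2.47 for Cox7b2 to Cox7b and 2.04 to 3.26 for Cox8c to Cox8a when 1 library was left out, and a pseudocount of 2 moved none by more than the spread between libraries.

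The replicate numbers are only shared labels, and the deviations of same-numbered libraries correlated at 0.33. A fit with the replicate block called 43 members lower, 50.6% against 25.6% of all genes (14 in complex I, 4 in complex II and 12 in complex V). It called 3 higher (Atp5mpl, Cox7a2 and Cox7b2). With the GC and length offset added it called 58 lower, 68.2% against 25.4% of all genes, and 2 higher. The lower ones were 23, 4, 7, 12 and 11 in complexes I, II, III, IV and V, and the median was -0.62. For the isoform ratios the block cannot change the differences. With 2 libraries a group, the mean of the same-numbered differences equals the difference of the group means.

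Several estimates of testis isoforms changed sign. With the GC and length offset Cox7b2 was -0.50, Cox8c -0.43 and Cyct -0.28. With the replicate block as well they were -0.51 (adjusted p = 0.0219), -0.42 (adjusted p = 0.0404) and -0.28 (adjusted p = 0.186), so that edgeR called Cox7b2 and Cox8c lower in that fit. With the block and no offset, edgeR called Cox7b2 higher (0.70, adjusted p = 0.0171). Cox8c was -0.036 with library size alone, and between -0.064 without BUS library 1 and 0.48 without BUS library 2. The causes were not tested. Depth limits the low members most, since Cox7a1 rests on 13 counts in each ULA library and Cox6a2 and Cox8b were too low to test.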

Other observations

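Markers of other cells of the testis were read from the same fit, in which 15.3% of all genes were lower and 11.8% higher. Of 5 peritubular muscle markers 4 were lower, with summed levels of 159 and 114 CPM in ULA libraries and 433 and 223 CPM in BUS libraries. Of 5 endothelial markers 3 were lower (38.9 and 32.0 CPM in ULA, 100 and 51.8 CPM in BUS), and of 8 spermatogonia markers 4 were lower (147 and 99.5 CPM in ULA, 300 and 271 CPM in BUS). The 6 macrophage markers did not pass the test and held 72.1 and 44.5 CPM in ULA libraries, against 280 and 56.2 CPM in BUS libraries, so that BUS library 1 stood far above BUS library 2. Of 6 adipocyte markers tested 3 were higher and 1 lower, at sums of 28.6 and 32.2 CPM in ULA and 28.6 and 25.4 CPM in BUS.

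The members' transcripts are short, with a median length of 838 bases compared with 2872 bases for protein-coding genes tested. Across protein-coding genes, which are not independent replicates, the log2 fold change had a Spearman correlation of -0.30 with GC content and 0.03 with length. Over the members it was -0.12 with GC content and 0.02 with length.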
